A study of Mus musculus with 16 samples.

Results

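Enteroendocrine cells are the hormone-secreting cells of the intestinal epithelium, and a cascade of transcription factors carries a crypt progenitor into this lineage. The 9 factors described here, Neurog3, Pax4, Insm1, Neurod1, Nkx2-2, Rfx6, Isl1, Pax6 and Lmx1a, were chosen by name for their known place in that cascade. Earlier results of these data were known when they were chosen. All 9 were matched by symbol to 9 of the 46078 Ensembl genes counted in 16 RNA-seq libraries of mouse intestinal organoids, and all 9 passed the filter on low counts.

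As background, Neurog3 is the basic helix-loop-helix factor that commits a secretory progenitor to the endocrine fate, and it is expressed only briefly. Its repression by Notch signalling through Hes1 and its dependence on Atoh1 place it at the top of the cascade. Pax4, Insm1, Neurod1, Nkx2-2 and Rfx6 act after it, and Isl1, Pax6 and Lmx1a are associated with the later choice of hormone. The factors are ordered below as early (Neurog3, Pax4), intermediate (Insm1, Neurod1, Nkx2-2, Rfx6) and late (Isl1, Pax6, Lmx1a).

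The organoids came from C57BL6 mice carrying Lgr5-EGFP-IRES-CreERT2, a Cre recombinase driven by the Lgr5 promoter of crypt base stem cells. Wild type (WT) organoids carried that allele alone and a red mCherry construct, and Apc mutant organoids carried Apc fl/fl as well, recombined in culture with 4OH-tamoxifen, and a green Venus construct. The protocol also names Villin-CreERT2.Apc fl/fl mice, without tying them to libraries. All cultures received EGF, R-spondin and Noggin. Untreated organoids gave 2 Apc mutant and 2 WT libraries on day 2. Conditioned medium, taken from WT or Apc-/- cultures, gave 12 libraries, 3 each of those titled APCCM (genotype label Apc mutant) and WTCM (genotype label WT) on day 2 and on day 4. The treatment label of all 12 names medium from Apc mutant cultures, so the titles leave it unclear whether APCCM and WTCM name the cells or the medium. The series' design text differs from these labels: it places conditioned medium on day 2 alone and untreated organoids on both days. The sample labels are used here, and the comparisons within a medium and between days rest on them. Titles of conditioned medium libraries follow one style on day 2 and another on day 4. Whether both days were prepared or sequenced together cannot be read from the titles. Such a difference could not be told apart from day in any comparison that uses both days. No label ties replicates to separate cultures or animals, so p-values measure the spread between these libraries, which may be technical.

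The genotype labels were checked on Apc and on 3 targets of Wnt signalling, which Apc restrains. Notum, a secreted Wnt inhibitor, averaged 285 CPM (counts per 1000000, scaled by the trimmed mean of M values) in the untreated Apc mutant libraries and 0.272 CPM in untreated WT. In the 4 conditioned medium groups Notum averaged 0.382 to 0.809 CPM. Nkd1, another inhibitor of the pathway, averaged 486 CPM against 1.55 CPM in untreated libraries and 1.61 to 4.67 CPM in conditioned medium, with the lower group means in APCCM on both days. Axin2 averaged 724 against 165 CPM untreated, and 269 against 345 CPM (day 2) and 183 against 281 CPM (day 4) in APCCM against WTCM. Apc itself was counted in all libraries, at 217 to 281 CPM everywhere except untreated WT (69.3 to 76.1 CPM). The conditioned medium libraries labelled Apc mutant thus lack the Wnt target levels of the untreated mutants, and they are called by their titles here.

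Totals of gene counts ran from 17986815 to 29152692 in conditioned medium and from 8325979 to 13027701 in untreated libraries. The media also differed in library content: of all gene counts, the non-coding Gm26917 made up 7.68 to 11.5% with conditioned medium and at most 0.00952% without. Factors were therefore compared within a medium only. WTCM day 4 replicate 1 stood apart from its group, with a chi-square per degree of freedom of 43.9 and 46.4 against the other two replicates, where all other replicate pairs gave 3.49 to 6.55. Factor calls that use it are given with and without it, as are the counts of several lists. Calls of other single genes are mostly given with it only. Epithelium markers (Epcam, Cdh1, Vil1, Krt8, Cdx2) summed to 2173 to 4708 CPM in every library, while stromal and endothelial markers summed to at most 1.83 CPM, with Col3a1, Dcn and Cdh5 at 0 in all libraries. Immune markers summed to 2.30 to 7.77 CPM.

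The sequences just upstream of a RefSeq start of 4 factors are shown because their results in the untreated comparison were unlike. Neurog3 did not pass the test, Rfx6 and Lmx1a were lower in the Apc mutant, and Isl1 was higher. Each is the 250 bases before the RefSeq transcript start (GRCm38.p6), written 5′ to 3′ on the gene's strand. The Rfx6 and Lmx1a windows lie inside the annotated spans of their genes, which begin at chr10:51677756 and chr1:167689237. An annotated start thus lies upstream of each of these windows, and the sequence before it is not shown. Capitals mark E-boxes (CANNTG, its own reverse complement), the element bound by basic helix-loop-helix factors such as Neurog3, Neurod1 and Atoh1.
Neurog3 chr10:62132840-62133089 (+): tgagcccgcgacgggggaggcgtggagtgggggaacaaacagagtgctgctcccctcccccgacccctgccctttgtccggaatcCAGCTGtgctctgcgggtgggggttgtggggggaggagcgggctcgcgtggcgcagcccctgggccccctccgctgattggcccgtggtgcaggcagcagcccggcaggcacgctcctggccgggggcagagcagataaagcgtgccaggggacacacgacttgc
Rfx6 chr10:51685268-51685517 (+): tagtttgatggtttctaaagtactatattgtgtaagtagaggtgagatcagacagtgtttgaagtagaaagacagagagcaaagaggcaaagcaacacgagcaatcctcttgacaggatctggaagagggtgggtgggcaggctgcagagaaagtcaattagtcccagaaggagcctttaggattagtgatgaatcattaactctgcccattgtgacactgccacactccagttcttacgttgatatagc
Isl1 chr13:116309689-116309938 (-): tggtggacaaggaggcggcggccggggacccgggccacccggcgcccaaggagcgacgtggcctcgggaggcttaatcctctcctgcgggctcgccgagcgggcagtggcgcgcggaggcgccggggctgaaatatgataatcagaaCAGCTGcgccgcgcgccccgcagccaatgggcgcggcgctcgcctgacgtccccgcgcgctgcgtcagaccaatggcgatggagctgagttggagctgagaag
Lmx1a chr1:167689308-167689557 (+): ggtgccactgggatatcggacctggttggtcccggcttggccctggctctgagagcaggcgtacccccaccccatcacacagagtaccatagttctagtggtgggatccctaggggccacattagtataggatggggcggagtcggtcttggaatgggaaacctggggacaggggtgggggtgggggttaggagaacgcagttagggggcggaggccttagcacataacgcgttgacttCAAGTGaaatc
Neurog3, Isl1 and Lmx1a hold 1 E-box each, starting 165, 103 and 11 bases before the transcript start, and Rfx6 holds 0. Of all 32851 RefSeq windows of this length, 66.2% hold at least 1. The Nkx2-2 window, not shown because 53 of its bases are annotated exon (at most 1 base in the windows shown), holds 3 E-boxes, of which 1 is CATCTG, the reverse complement of CAGATG, present in 14.4% of windows. The TCF/LEF letters ATCAAAG or CTTTGAT, through which Wnt signalling acts, are in none of the 8 windows of the 7 matched factors and in 3.21% of all windows. The Hes letters CACNAG or CTNGTG are in the Rfx6 and Lmx1a windows, in 1 of the 2 windows of Pax6, and in 36.7% of all windows. A match is a description of the letters and not a site.

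In untreated organoids 5 factors of the intermediate and late steps were lower in the Apc mutant than in WT, and the late factor Isl1 was higher. The early factors Neurog3 and Pax4 and the intermediate factor Insm1 did not pass the test. In bulk libraries fewer cells of a type and less RNA per cell cannot be told apart. Untreated Apc mutant libraries were compared here with untreated WT libraries. Besides Apc, these groups differ in their construct, Venus in the mutant and mCherry in WT. Recombination with tamoxifen in culture is described for the mutant only. The part of these differences in the factor results was not tested. The quasi-likelihood test of edgeR, with p adjusted (Benjamini-Hochberg) over 16510 tested genes, called 6 of the 9 factors at an adjusted p under 0.05. In the same comparison 62.5% of all tested genes passed (32.4% higher, 30.1% lower), so the number of factors called is near that background. Their median log2 fold change was -1.74, against 0.00 over all tested genes.

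Neurog3 (ENSMUSG00000044312, chr10:62133090-62134763) had 10.8 and 11.9 CPM in the Apc mutant libraries and 15 and 12.9 CPM in WT. The ranges did not overlap, and the log2 fold change was -0.30 ± 0.13 (SE), with an adjusted p of 0.0512. It passed with DESeq2's size factors in the same test (0.0459) and without WT replicate 5 (0.0304). It did not pass under the other alternatives, with an adjusted p of 0.0909 in DESeq2, 0.124 with no filter on low counts, 0.217 without mutant replicate 4 (log2 fold change -0.23) and 0.412 without WT replicate 4 (-0.18). Pax4 (ENSMUSG00000029706, chr6:28442334-28449353), a repressor that acts in early endocrine precursors, had 0.901 and 0.978 CPM in the mutant and 1.47 and 1.64 CPM in WT. Its log2 fold change of -0.71 ± 0.36 had an adjusted p of 0.0885 on 29 and 33 counts.

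The intermediate factor Insm1 (ENSMUSG00000068154, chr2:146221921-146225020), a zinc finger repressor, behaved like the early factors: 5.54 and 6.11 CPM in the mutant, 7.19 and 7.42 CPM in WT, log2 fold change -0.32 ± 0.15, adjusted p 0.0722. The other intermediate factors fell. Neurod1 (ENSMUSG00000034701, chr2:79452521-79456751), a helix-loop-helix factor that follows Neurog3, had 0.208 and 0.122 CPM in the mutant against 4.74 and 3.60 CPM in WT. This was a log2 fold change of -4.65 ± 0.44 (adjusted p 1.44e-09), on 5 counts in both mutant libraries together. Nkx2-2 (ENSMUSG00000027434, chr2:147177546-147194243), a homeodomain factor, had 0.277 and 0.245 CPM against 4.49 and 3.60 CPM. Its log2 fold change was -3.95 ± 0.41 (adjusted p 8.01e-09). Rfx6 (ENSMUSG00000019900, chr10:51677756-51730432), a winged-helix factor, kept a larger part of its WT level, with 1.73 and 1.83 CPM in the mutant and 6.37 and 5.45 CPM in WT (log2 fold change -1.74 ± 0.22, adjusted p 1.89e-07).

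The late factors went in opposite directions. Isl1 (ENSMUSG00000042258, chr13:116298281-116309689), a LIM-homeodomain factor of several hormone lineages, had 26.1 and 23.2 CPM in the Apc mutant and 1.39 and 1.42 CPM in WT. It was 17.5-fold higher in the mutant (log2 fold change 4.13 ± 0.25, adjusted p 1.95e-13). Pax6 (ENSMUSG00000027168, chr2:105668900-105697364), a paired-domain factor linked to hormone genes of the proglucagon and GIP type, had 0.208 and 0.0611 CPM in the mutant and 1.47 and 1.96 CPM in WT. Its log2 fold change was -3.63 ± 0.65 (adjusted p 2.92e-05), on 4 counts in the mutant. It ran from -4.65 without mutant replicate 4 to -2.98 without mutant replicate 5. Lmx1a (ENSMUSG00000026686, chr1:167689237-167848741), a LIM-homeodomain factor of the serotonin-producing enterochromaffin cells, gave 1 count in the mutant libraries, both together, and 30 in WT. WT was 43.1-fold higher by the ratio of scaled counts, with a 95% interval of 7.17 to 1760 that covers counting error only. The test called it lower (adjusted p 7.53e-06).

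**Figure D1:**
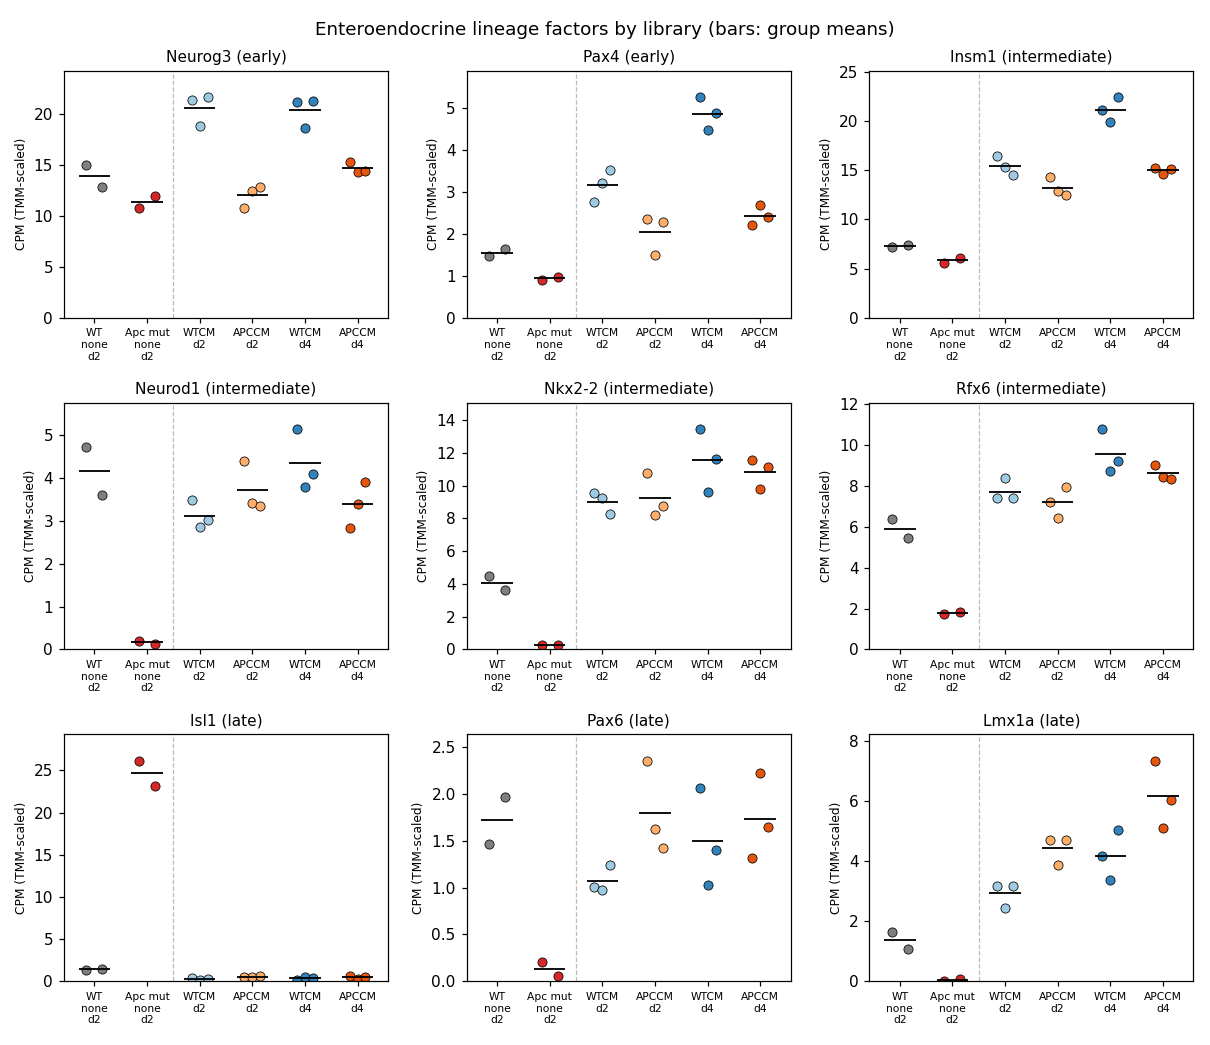
Scaled CPM (y axis, linear from 0, one scale per panel) of the 9 factors in each of the 16 libraries (points) by group, with group means as bars. The dashed line separates untreated from conditioned medium libraries, whose content differed. Isl1 stands at 23.2 and 26.1 CPM in the untreated Apc mutant libraries and at most 1.42 CPM elsewhere, while Neurod1, Nkx2-2, Pax6 and Lmx1a are near 0 in those same 2 libraries.

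Per kilobase of exon, Neurog3 (6.79 CPM per kb) and Isl1 (6.23) were the most abundant of the 9 in the untreated Apc mutant by group mean. In untreated WT the order ran from Neurog3 (8.33 CPM per kb) through Insm1 (2.36) to Isl1 (0.354) and Pax6 (0.147). Within each library, Isl1 gave 242 and 194 counts per 100 Neurog3 counts in the mutant and 9.24 and 11 in WT. Insm1 gave 51.3 per 100 in both mutant libraries and 47.8 and 57.6 in WT, so the balance of Insm1 to Neurog3 overlapped between genotypes.

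Other regulators and the granule and hormone genes were counted alongside. Of 8 regulators of secretory fate and Notch signalling, 2 were higher and 5 lower in the untreated mutant. Atoh1, the factor of all secretory lineages, averaged 3.04 CPM against 13.2 CPM (log2 fold change -2.10, adjusted p 1.04e-10). Spdef, a goblet and Paneth factor, averaged 1.06 CPM against 18.3 CPM. The Notch ligand Dll1 averaged 23.8 CPM against 52.6 CPM. Hes1, the Notch target that represses Neurog3, averaged 72.6 CPM and 69.8 CPM and was not called (adjusted p 0.484). Of 14 tested genes among 15 other enteroendocrine regulators, 5 were higher and 8 lower. Sox4, which acts in endocrine precursors, averaged 505 CPM against 121 CPM (log2 fold change 2.06, adjusted p 6.05e-19). The repressor partner Rcor2 averaged 63.0 CPM against 18.5 CPM and the forkhead factor Foxa1 102 CPM against 48.0 CPM, both called higher.

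Of 17 tested granule and hormone genes, from a list of 19, 0 were higher and 16 lower in the untreated mutant, with a median log2 fold change of -6.22, or -5.67 with the 6 tested genes at 0 in the mutant set to the bound that 3 counts over the group allow. Chgb, a granin of the secretory granule, averaged 3.79 CPM against 283 CPM, and Chga, another granin, 0.230 CPM against 43.1 CPM. Gip, the hormone of K cells, gave 0 counts in the mutant and was at least 749.7-fold lower. Markers of other epithelial cells moved as well: goblet markers were lower for 6 of 6 (summed 203 to 209 CPM in the mutant, 2883 to 3096 CPM in WT), tuft markers for 5 of 5 and Paneth markers for 3 of 5, with the other 2 higher. Enterocyte markers were lower for 4 of 5, with the other higher. Stem cell markers were higher for 4 of 5 and lower for 1, Olfm4. Their part in the factor results was not tested. Isl1 is also expressed in some neurons and mesenchymal cells. Neuron and glia markers summed to 5.96 to 6.42 CPM in the mutant and 7.63 to 8.33 CPM in WT, with Sox10 at 0 in all libraries. Stromal and endothelial markers summed to 1.04 to 1.83 CPM in the mutant and 0.763 to 0.981 CPM in WT. The part of these cells in the Isl1 result was not tested.

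In conditioned medium on day 2 the early factors were lower and 1 late factor was higher in the APCCM libraries than in WTCM. The comparison sets both titles side by side at the same age. Of the 9 factors 1 was higher and 2 lower, where 16.7% of all tested genes passed (8.54% higher, 8.15% lower). That share is 2755 genes, and 1725 were called without APCCM replicate 3. The median log2 fold change of the factors was 0.04, against 0.00 over all genes.

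Neurog3 had 10.8, 12.4 and 12.9 CPM in APCCM and 21.3, 18.8 and 21.6 CPM in WTCM. All APCCM libraries lay below all WTCM libraries, 1.71-fold lower (log2 fold change -0.78 ± 0.09, adjusted p 1.23e-06). Pax4 had 2.35, 1.51 and 2.28 CPM against 2.76, 3.22 and 3.53 CPM. It too was lower without overlap (log2 fold change -0.62 ± 0.19, adjusted p 0.0244). Insm1 had 14.3, 12.9 and 12.5 CPM against 16.4, 15.3 and 14.6 CPM, also without overlap, and did not pass (log2 fold change -0.22 ± 0.09, adjusted p 0.0819).

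The remaining intermediate factors overlapped between titles on day 2. Neurod1 had 3.34 to 4.4 CPM in APCCM and 2.86 to 3.50 CPM in WTCM (adjusted p 0.387). Nkx2-2 had 8.22 to 10.7 CPM against 8.26 to 9.52 CPM (adjusted p 0.879), and Rfx6 had 6.43 to 7.96 CPM against 7.41 to 8.37 CPM (adjusted p 0.628). Late factors lay above 0 in log2 fold change. Lmx1a had 4.71, 3.88 and 4.71 CPM in APCCM and 3.17, 2.45 and 3.18 CPM in WTCM, and was higher by a log2 fold change of 0.59 ± 0.19 (adjusted p 0.0336). Pax6 had 2.35, 1.62 and 1.42 CPM against 1.01, 0.970 and 1.24 CPM, without overlap, and did not pass (0.74 ± 0.29, adjusted p 0.0883). Isl1 was at 0.521 to 0.608 CPM against 0.153 to 0.368 CPM, from 32 and 16 counts, and did not pass (1.10 ± 0.43, adjusted p 0.0828).

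The Pax4 call on day 2 did not hold without APCCM replicate 2 (adjusted p 0.116), WTCM replicate 2 (0.0607) or WTCM replicate 3 (0.104), or in DESeq2 (0.0718). That of Lmx1a held without APCCM replicate 2 (0.0296) and was lost without any other single library (0.0544 to 0.136) and in DESeq2 (0.0550).

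By day 4 the same direction was seen at the early end, with Insm1 added. In APCCM against WTCM 1 factor was higher and 3 were lower, where 15.6% of all tested genes passed (7.83% higher, 7.80% lower). The factors' median log2 fold change was -0.15, against 0.00 over all genes.

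Neurog3 had 15.3, 14.3 and 14.4 CPM in APCCM and 21.1, 18.7 and 21.3 CPM in WTCM (log2 fold change -0.47 ± 0.09, adjusted p 0.000446). Pax4 had 2.20, 2.68 and 2.40 CPM against 5.26, 4.47 and 4.87 CPM, a 2.00-fold difference (log2 fold change -1.0 ± 0.17, adjusted p 0.000123). Insm1 had 15.2, 14.6 and 15.2 CPM against 21.2, 19.9 and 22.5 CPM (log2 fold change -0.50 ± 0.08, adjusted p 9.59e-05). For each of these 3 factors every APCCM library lay below every WTCM library, a separation whose share over all genes was not computed. Without WTCM day 4 replicate 1 their log2 fold changes were -0.45, -0.95 and -0.50 (adjusted p 0.00275, 0.00106 and 0.000476).

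Lmx1a had 7.33, 5.11 and 6.03 CPM in APCCM and 4.17, 3.36 and 5.02 CPM in WTCM, and was higher (log2 fold change 0.55 ± 0.17, adjusted p 0.0274). That call was lost without APCCM replicate 1 (0.169) or 3 (0.0604), without WTCM replicate 1 (0.0693) or 2 (0.152), and in DESeq2 (0.0566). The other 5 factors overlapped between titles and did not pass. Neurod1 had 2.84 to 3.92 CPM against 3.80 to 5.15 CPM (log2 fold change -0.34 ± 0.17, adjusted p 0.194). Nkx2-2 had 9.80 to 11.6 CPM against 9.58 to 13.4 CPM, and Rfx6 had 8.35 to 9.04 CPM against 8.73 to 10.8 CPM (adjusted p 0.721 and 0.414). Isl1 (0.258 to 0.636 CPM against 0.163 to 0.492 CPM) and Pax6 (1.32 to 2.22 CPM against 1.03 to 2.06 CPM) were low in both. Without WTCM replicate 1 none of these 5 passed (adjusted p 0.331 to 0.922).

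**Figure D2:**
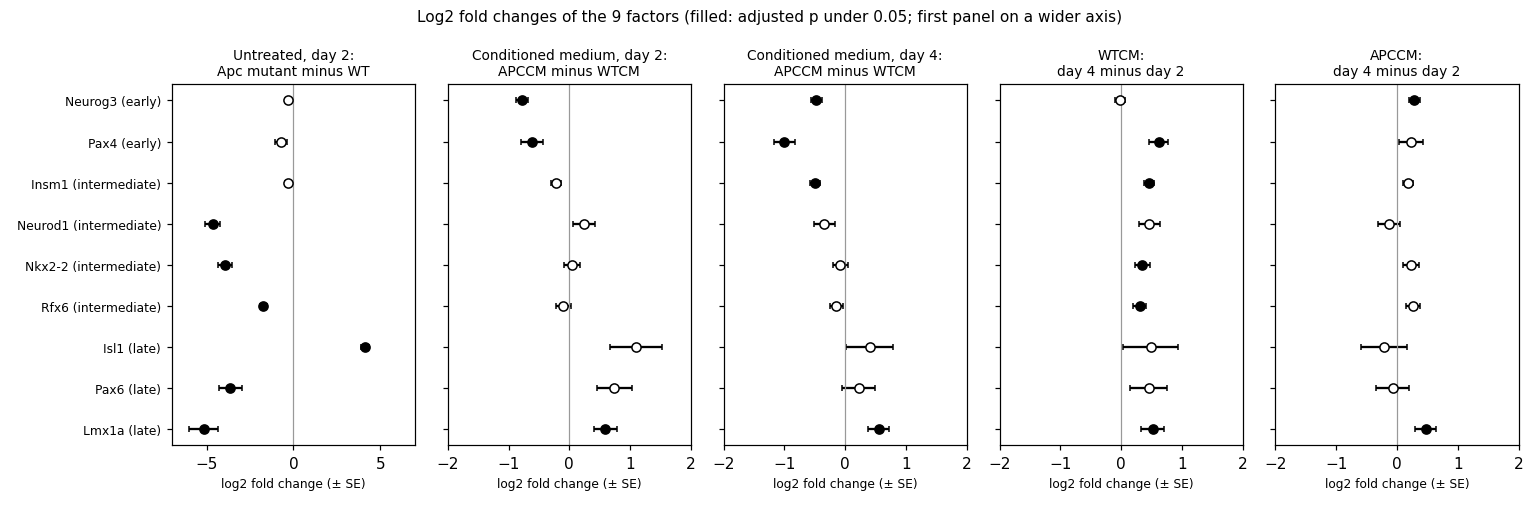
Log2 fold changes (x axis, ± SE) of the 9 factors, ordered early to late from the top, in 5 comparisons. Filled points have an adjusted p under 0.05, and the first panel has a wider axis. In conditioned medium on both days Neurog3 and Pax4 lie left of 0 and Lmx1a right of 0, and in the WTCM day comparison 5 factors other than Neurog3 lie filled to the right.

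The title difference was then compared between days. As an interaction term 0 of the 9 factors passed, where 2.13% of all tested genes did (0.884% higher, 1.24% lower). At an unadjusted p under 0.05 there were 3, Neurog3 (0.30 ± 0.13), Neurod1 (-0.59 ± 0.25) and Insm1 (-0.28 ± 0.12), with adjusted p of 0.316, 0.315 and 0.329, and DESeq2 called 0. The call of Insm1 on day 4 and not on day 2 is thus not shown to be a difference between days. Leaving out WTCM day 4 replicate 1 also gave 0 factors called.

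Relative to Neurog3 in the same library, several later factors gave more counts in APCCM, where Neurog3 itself was lower. Lmx1a gave 31.2 to 43.6 counts per 100 Neurog3 counts in APCCM on day 2 and 13 to 14.9 in WTCM. On day 4 it gave 35.6 to 48.1 and 18.0 to 23.6. Rfx6 gave 51.6 to 66.8 against 34.3 to 44.4 on day 2, and 58.1 to 59.3 against 43.4 to 51.0 on day 4. Nkx2-2 gave 66.0 to 99.5 against 38.2 to 49.1, and then 68.3 to 77.4 against 51.3 to 63.6. These 3 factors did not overlap between titles on either day. Neurod1, Insm1 and Pax6 were apart on day 2 and overlapped on day 4 (Neurod1 26.0 to 40.8 against 14 to 16.4 on day 2, and 18.6 to 27.3 against 19.3 to 24.4 on day 4). Pax4 overlapped on day 2 and on day 4 was lower in APCCM, at 14.4 to 18.7 against 22.9 to 24.9. These ratios carry no test, and all of them share the Neurog3 count of their library, which was lower in APCCM. A gene equal between titles would thus also give a higher ratio, and Nkx2-2 and Rfx6 themselves were not called on either day. The share of all genes that separate in this way was not computed. Without WTCM day 4 replicate 1 the WTCM day 4 ranges were 43.4 to 46.8 (Rfx6), 51.3 to 54.5 (Nkx2-2), 18.0 to 23.6 (Lmx1a) and 22.9 to 24.0 (Pax4), and none of these 4 overlapped APCCM.

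**Figure D3:**
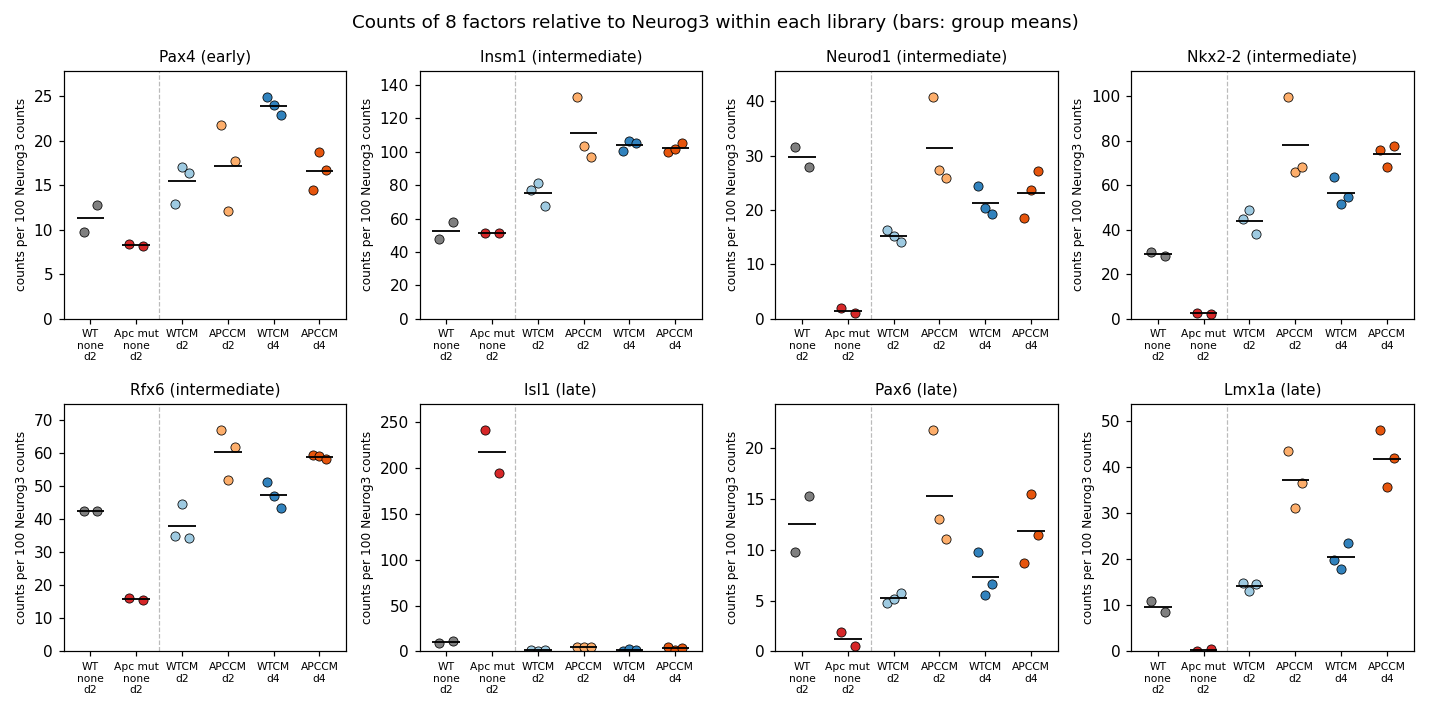
Counts of 8 factors per 100 Neurog3 counts (y axis, linear from 0, one scale per panel) in each library (points), with group means as bars. In conditioned medium the APCCM points of Nkx2-2, Rfx6 and Lmx1a lie above all WTCM points of the same day. In the untreated Apc mutant Isl1 reaches 194 and 242 per 100.

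Beside the lower early factors, the granule and hormone genes were higher in APCCM. On day 2, 14 of 17 tested were higher and 0 lower, with a median log2 fold change of 0.93. On day 4, 11 were higher and 0 lower, with a median of 0.68. Reg4, a secreted lectin of enteroendocrine cells and other secretory cells, averaged 512 CPM in APCCM and 205 CPM in WTCM on day 2 (log2 fold change 1.32, adjusted p 7.86e-12). Chgb averaged 649 CPM against 369 CPM on day 2, and 817 CPM against 591 CPM on day 4 (log2 fold changes 0.81 and 0.47, adjusted p 1.40e-09 and 7.50e-06). Chga averaged 95.4 CPM against 60.1 CPM, and then 151 CPM against 94.6 CPM. Tph1, the enzyme of serotonin synthesis in the cells for which Lmx1a is known, averaged 32.1 CPM against 16.5 CPM on day 2 (log2 fold change 0.97, adjusted p 7.93e-09). Tac1, the substance P precursor, averaged 20.5 CPM against 11.2 CPM on day 4. On day 4 again 11 of 17 were higher and 0 lower without WTCM day 4 replicate 1, with a median of 0.64.

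Among the 8 secretory fate and Notch genes, 3 were lower on day 2 and 4 on day 4, with 0 higher on either day. Hes1 averaged 66.9 CPM in APCCM against 80.6 CPM in WTCM on day 2 (log2 fold change -0.27, adjusted p 0.000359), and 42.6 CPM against 51.9 CPM on day 4 (-0.29, adjusted p 0.000283). Notch1, the receptor, averaged 137 CPM against 171 CPM and then 116 CPM against 158 CPM, and Hes6 44.4 CPM against 53.0 CPM and then 39.5 CPM against 46.8 CPM, each called lower on both days. Dll1 was not called on day 2 (adjusted p 0.468) and was lower on day 4 (90.2 CPM against 107 CPM, adjusted p 0.0206), with overlapping libraries. Dll1 was not called without WTCM day 4 replicate 1 (0.117), which left 3 of 8 lower. Atoh1 was not called on either day, at 19.8 CPM against 19.0 CPM and then 10.4 CPM against 10.5 CPM (adjusted p 0.682 and 0.971).

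Of the 14 other enteroendocrine regulators tested, 2 were higher and 1 lower on day 2, and 0 were higher and 1 lower on day 4. Over all tested genes 16.7% passed on day 2 and 15.6% on day 4, so these counts are near or below the background. Sox4 was the lower one on both days, at 237 CPM against 280 CPM and then 184 CPM against 267 CPM (log2 fold changes -0.24 and -0.53). The day 4 count was again 0 higher and 1 lower without WTCM day 4 replicate 1. Tox3 (42.0 CPM against 35.5 CPM) and Runx1t1 (3.34 CPM against 2.23 CPM) were the higher ones on day 2.

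Other cell types moved with these comparisons. Goblet markers were higher in APCCM for 6 of 6 on day 2 and 4 of 6 on day 4, and Paneth markers for 5 of 5 and then 2 of 5 with 1 lower. Tuft markers were higher for 1 of 5 and then 3 of 5. Stem cell markers were lower for 4 of 5 on day 2 and 5 of 5 on day 4. Without WTCM day 4 replicate 1 the day 4 counts were 3 of 6 goblet, 2 of 5 Paneth (0 lower) and 2 of 5 tuft markers higher and 5 of 5 stem cell markers lower. Of the 8 neuron and glia markers 3 could be tested, and Ret and Tubb3 were lower on day 4, when the list summed to 8.01 to 8.26 CPM in APCCM and 12.5 to 13.9 CPM in WTCM, with Sox10 at 0. Without WTCM day 4 replicate 1, 3 of these 3 were lower. The part of these markers in the factor results was not tested.

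**Figure D4:**
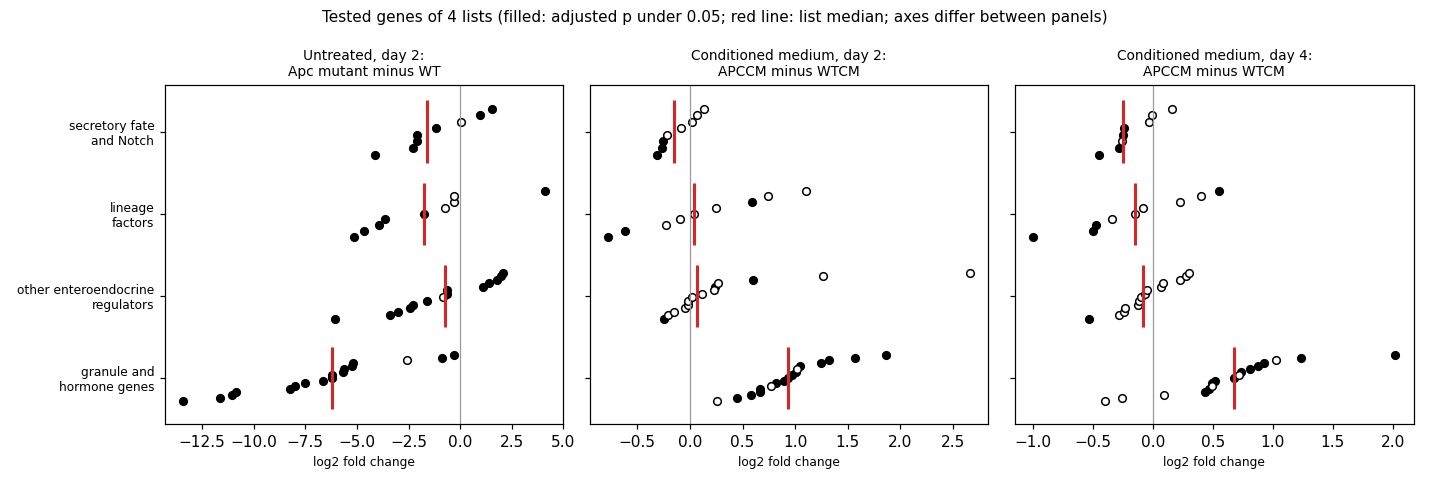
Log2 fold changes (x axis, a different range in each panel) of the tested genes of 4 lists in the 3 comparisons of titles or genotypes. Each point is a gene, filled where the adjusted p is under 0.05, and red lines are list medians. Granule and hormone genes lie mostly left of 0 in the untreated mutant (16 of 17 lower) and mostly right of 0 in APCCM (14 and 11 of 17 higher), while the lineage factors spread to both sides.

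From day 2 to day 4 in WTCM, Pax4, Insm1, Nkx2-2, Rfx6 and Lmx1a rose. These are 5 of the 9 factors, and 0 were lower, where 24.1% of all tested genes passed (12.5% higher, 11.6% lower), and the factors' median log2 fold change was 0.46 against 0.00 over all genes. Neurog3 overlapped between days and did not pass, with 21.3, 18.8 and 21.6 CPM on day 2 and 21.1, 18.7 and 21.3 CPM on day 4 (log2 fold change -0.02 ± 0.09, adjusted p 0.909). Pax4 rose from a mean of 3.17 ± 0.39 CPM (SD, n = 3) to 4.87 ± 0.39 CPM (log2 fold change 0.62 ± 0.16, adjusted p 0.0064). Insm1 rose from 15.4 ± 0.93 CPM to 21.2 ± 1.27 CPM (0.46 ± 0.08, adjusted p 0.000215). Nkx2-2 rose from 9.01 to 11.5 CPM (0.35 ± 0.12, adjusted p 0.0404), Rfx6 from 7.73 to 9.58 CPM (0.30 ± 0.11, adjusted p 0.0482) and Lmx1a from 2.94 to 4.18 CPM (0.52 ± 0.19, adjusted p 0.0469). For these 5 factors the libraries of the days did not overlap, a separation whose share over all genes was not computed. Neurod1 went from 3.13 to 4.35 CPM without overlap and did not pass (0.46 ± 0.17, adjusted p 0.056), and Isl1 and Pax6 overlapped between days.

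Pax4 and Insm1 held when any single library was left out, with adjusted p up to 0.0446 and 0.00289. Without WTCM day 4 replicate 1 only these 2 were called, and Nkx2-2 (adjusted p 0.217), Rfx6 (0.219) and Lmx1a (0.0872) were not. DESeq2 called the same 2. Without WTCM day 4 replicate 1, 1617 of all 16485 tested genes were higher and 1428 lower. DESeq2 called 1918 higher and 1626 lower of 13894. A count of 2 factors is near these shares of genes called in either direction. Without WTCM day 4 replicate 1 the factors' median log2 fold change was 0.335, against 0.005 over all genes. Rfx6 was also lost with no filter on low counts (0.0884) and with a replicate block (0.0538). Calls were also lost without day 2 replicate 1 (Nkx2-2 0.0595, Rfx6 0.148, Lmx1a 0.0702), day 2 replicate 2 (Nkx2-2 0.0738, Lmx1a 0.182), day 2 replicate 3 (Nkx2-2 0.150, Rfx6 0.137, Lmx1a 0.0649) and day 4 replicate 3 (Nkx2-2 0.0983, Rfx6 0.0732, Lmx1a 0.268). Neurod1 passed in a fit of conditioned medium libraries alone (0.0472) and without day 4 replicate 2 (0.0458).

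In APCCM, 2 factors were higher on day 4 than on day 2 and 0 were lower, where 23.9% of all tested genes passed (12.2% higher, 11.7% lower), and the factors' median log2 fold change was 0.23 against 0.00. The count of factors is near that background. Neurog3 rose from 12 ± 1.1 CPM to 14.7 ± 0.51 CPM (SD, n = 3), with every day 4 library above every day 2 library (log2 fold change 0.28 ± 0.09, adjusted p 0.0309). Lmx1a rose from 4.43 ± 0.48 to 6.16 ± 1.1 CPM (0.47 ± 0.17, adjusted p 0.0485). Insm1 (13.2 to 15 CPM, adjusted p 0.140) and Rfx6 (7.20 to 8.62 CPM, adjusted p 0.115) did not overlap between days and did not pass. Pax4, Nkx2-2, Neurod1, Isl1 and Pax6 overlapped. The Neurog3 call was lost without day 2 replicate 1 (0.167) and without day 4 replicates 1 (0.104), 2 (0.0541) or 3 (0.0584). That of Lmx1a was lost in DESeq2 (0.104) and without any single library other than day 4 replicate 2 (0.0735 to 0.238).

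Around the factors, Hes1 and Atoh1 fell between days under both titles. Atoh1 went from 19.0 to 10.5 CPM in WTCM and from 19.8 to 10.4 CPM in APCCM (log2 fold changes -0.85 and -0.93, adjusted p 8.32e-07 and 1.74e-07). Hes1 went from 80.6 to 51.9 CPM and from 66.9 to 42.6 CPM. The secretory factor Gfi1 also fell, from 5.57 to 3.46 CPM and from 6.12 to 3.83 CPM. In all, 4 of 8 secretory fate and Notch genes fell in WTCM and 5 in APCCM, and 0 rose. Of granule and hormone genes 8 of 17 rose and 0 fell in WTCM, and 6 rose and 1 fell in APCCM. Chga rose from 60.1 to 94.6 CPM in WTCM and from 95.4 to 151 CPM in APCCM. Among other enteroendocrine regulators, the serotonin factor Fev rose under both titles (4.06 to 7.11 CPM and 4.01 to 6.5 CPM), and Myt1, a zinc finger factor of endocrine precursors, rose in WTCM (5.87 to 11.1 CPM). As interactions, 2 of the granule and hormone genes passed, Tph1 (-0.47, adjusted p 0.0223) and Chgb (-0.35, adjusted p 0.0378), and 1 other regulator, Sox4 (-0.29, adjusted p 0.0275). All 3 were lost without WTCM day 4 replicate 1 (0.0831, 0.139 and 0.0643). In WTCM without that library 8 of 17 granule and hormone genes again rose and 0 fell, and 3 of 8 secretory fate and Notch genes fell. In WTCM, Ret and Tubb3 of the neuron and glia list also rose (adjusted p 0.00367 and 0.000534), in APCCM Tubb3 alone (0.0425). In WTCM 4 of 5 enterocyte, 3 of 6 goblet and 3 of 5 tuft markers were higher on day 4, and 1 of 5 stem cell markers was lower. In APCCM 5 of 5 Paneth and 4 of 5 stem cell markers were lower, and as interactions 5 of 5 Paneth markers passed, all lower. Without WTCM day 4 replicate 1 the WTCM tuft count was 2, and the Paneth interaction count was 4, while the WTCM enterocyte, goblet and stem cell counts were again 4, 3 and 1. The part of these markers in the factor results was not tested.

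By group mean the levels per length gave first place to Neurog3 in every group. In the untreated Apc mutant the first place turned between libraries, with Isl1 at 6.60 and Neurog3 at 6.46 CPM per kb in replicate 4, and 5.85 and 7.12 in replicate 5. In WTCM on day 2 it stood at 12.3 CPM per kb of exon, followed by Insm1 (4.98), Nkx2-2 (3.13), Pax4 (2.19), Rfx6 (1.93), Neurod1 (1.15), Lmx1a (0.865), Pax6 (0.0920) and Isl1 (0.0648). Over the 4 conditioned medium groups, Neurog3 was highest in both WTCM groups, which overlapped, then in APCCM day 4 and in APCCM day 2. Pax4 and Insm1 were highest in WTCM day 4, apart from all other groups. For Insm1 the WTCM day 2 and APCCM day 4 libraries overlapped, and for Pax4 both APCCM groups did. Nkx2-2, Rfx6, Neurod1, Isl1 and Pax6 overlapped between all neighbours in the order. Lmx1a was highest in APCCM day 4, APCCM day 2 and WTCM day 4 overlapped, and WTCM day 2 was lowest without overlap. Neurog3 shares 273 exon bases with Fam241b and Nkx2-2 shares 278 with Nkx2-2os on the opposite strand. Neurod1 shares 201 with Cerkl on its own strand. The sources used here do not state whether counting used strand, and reads in those stretches cannot be assigned with certainty.

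For each factor the tested genes most like it over the 12 conditioned medium libraries were those with the smallest root mean square difference of centred log2 CPM, among genes not far below it in mean level (at least 0.25 of its mean). For Neurog3 these were Oat (0.114), Ttyh3 (0.128) and Gramd3 (0.129), against a spread of Neurog3 itself of 0.329. For Insm1 they were Pklr (0.0650), Slc2a2 (0.0713) and Galm (0.0921), against 0.252. For Pax4 they were A430035B10Rik (0.154), Pou6f1 (0.159) and Mylk3 (0.181), against 0.437. For Lmx1a they were Zfp385a (0.135), Enpep (0.145) and Plekhg1 (0.146), against 0.379. For Rfx6 they were 4930453N24Rik, Ppp2r3a and Auts2, at 0.0674 to 0.0782 against 0.176. Nkx2-2 was nearest to Ptpre, Reps2 and Pfkfb2, at 0.0991 to 0.102 against 0.199. Neurod1 was nearest to Pcx, Nupr1 and Cpm, at 0.122 to 0.133 against 0.216. Isl1 was nearest to Stx1a, Zfp938 and Naglu, at 0.130 to 0.156 against 0.275. Pax6 was nearest to Muc3a, Slc2a10 and Stk10, at 0.179 to 0.184 against 0.313. None of the 27 named genes is another of the 9 factors. Only 3 genes per factor were taken from 10751 to 15962 compared, and the limit on mean level left some factors out. The lists therefore do not show whether the factors vary together.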

How the data were processed

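RNA was counted in 16 libraries of mouse intestinal organoids in 6 groups, by genotype label, treatment and culture day. The authors deposited raw whole-number counts per Ensembl gene for each library. The submitters' processing notes name HTSeq 0.6.1p1, HISAT2 2.1.0, Trimmomatic 0.36 and the build GRCm38. The sources used here do not state the options, strand setting or annotation release. Libraries were made with a kit that removes ribosomal RNA, per the labels' protocols. Of 46078 identifiers, 98.2% had a symbol in GENCODE M21 (GRCm38), whose gene coordinates are used. The summary lines of the counting tool (reads outside annotated features, 4.78 to 19.2% of reads, and reads with several alignments, 26.5 to 38.9%) were left out.

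All 6 groups entered one edgeR quasi-likelihood fit (edgeR 4.0.16, limma 3.58.1, R 4.3.3) with libraries scaled by TMM (0.898 to 1.26). The filterByExpr filter left 16510 genes, and 10 residual degrees of freedom. The common biological coefficient of variation was 5.96%. Benjamini-Hochberg adjustment ran over all genes tested, with a threshold of 0.05. The fit was also run on simulated counts with a single common dispersion and few changed genes. That setting is simpler than these data, so it does not measure the error of the calls here. CPM values are TMM-scaled, errors of log2 fold changes are standard errors derived from the F statistic, and other errors are SDs. Replicate numbers gave no clear pairing of the libraries, apart from a hint between days in APCCM and a correlation of -0.518 in the untreated groups. The main fit used no block, and a replicate block was run as an alternative.

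The factors and 13 supporting lists were chosen with earlier results of these data known. Genes were named by rule: all 9 factors, up to 3 genes per list and comparison with the smallest adjusted p, Atoh1, Dll1, Hes1, Chga and Chgb always, Apc, Notum, Nkd1 and Axin2 as the label check, and the 3 genes most like each factor (log2 of CPM + 0.5). Not every gene the rule allows is named, and some are not reported here. Genes at 0 in a group were bounded at 3 counts over the group. Where libraries of groups are said not to overlap, the share of all genes that separate likewise was not computed. Alternatives were RLE size factors, no filter, a fit per medium, a replicate block, DESeq2 1.42.0, and each library left out. Where a genotype group of 2 lost a library, the lone library was assumed to vary like the others.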

Additional observations from a re-analysis of the deposited data

How the results depend on the processing

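No factor that passed the test changed direction under any alternative run. In the untreated comparison the 6 calls held under all of them. The factors called fell under DESeq2 from 3 to 1 in conditioned medium on day 2, from 4 to 3 on day 4, from 2 to 1 between days in APCCM, and from 5 to 2 between days in WTCM. Over all genes DESeq2 called 1394 higher and 1076 lower of 14398 on day 2, and 1278 and 1053 of 13894 on day 4. Between days it called 1901 and 1601 of 15406 in APCCM, and 1918 and 1626 of 13894 in WTCM. Its factor counts on day 2 and between days are not above these shares. With 1 library left out the factors called ran from 1 to 2 on day 2, from 3 to 4 on day 4, from 0 to 1 in APCCM and from 2 to 6 in WTCM. All genes called on day 2 ran from 1725 to 2484 with 1 library left out, against 2755. For the interaction, 568 genes were called in a fit of conditioned medium alone, against 351. Calls of single factors that changed are given with the results.

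Libraries that share a replicate number did not deviate together between titles (correlations of -0.129 to 0.0848 on day 2 and -0.111 to 0.0833 on day 4) or between days in WTCM (-0.0264 to 0.0301). Between days in APCCM they were 0.0827 to 0.121, and each of 3 libraries correlated best with its own number, a hint from the data only. With the replicate block 10087 genes were called in the untreated comparison, against 10321. The block gave 2327 and 2237 in conditioned medium on days 2 and 4, against 2755 and 2581. Between days it gave 3557 (APCCM) and 3526 (WTCM), against 3946 and 3980, and 260 against 351 for the interaction. It ended 1 factor call, Rfx6 between days in WTCM (adjusted p 0.0538). In the untreated groups the correlation was -0.518. Crossing the 2 numbers there, chosen after seeing the data, gave 10563 genes called. Depth limits Isl1 in conditioned medium (16 to 32 counts a group) and Pax6, Neurod1 and Lmx1a in the untreated mutant (4, 5 and 1 counts).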
